A study of Saccharomyces cerevisiae with 18 samples.

Results

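ADH6, ADH7, OYE2 and OYE3 encode 4 soluble yeast enzymes that spend NADPH to reduce aldehydes, ketones and activated double bonds. They were 4 of the 5276 named genes measured in a glucose time-course of wild-type Saccharomyces cerevisiae, and they were chosen by their steep and short-lived excess in mRNA at 3 min. At that time their mean log2 ratios to a common reference were 2.85 for ADH6 (YMR318C), 2.10 for ADH7 (YCR105W), 1.49 for OYE2 (YHR179W) and 4.63 for OYE3 (YPL171C). The 4 genes then parted. OYE2 was at 0.65 by 7.5 min, OYE3 at 0.87 by 30 min, and ADH6 and ADH7 were still at 1.72 and 1.75 at 30 min.

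Adh6 and Adh7 are a pair of related medium-chain alcohol dehydrogenases of the cinnamyl alcohol type, which reduce a wide range of aldehydes, including furan and cinnamic aldehydes, and use NADPH where the fermentative alcohol dehydrogenases use NADH. Oye2 and Oye3 are the old yellow enzymes of yeast, flavoproteins that carry FMN and pass electrons from NADPH to quinones and to alpha,beta-unsaturated aldehydes and ketones. Genes of this kind are known from work on oxidant, electrophile and drug stress, where the basic leucine zipper factor Yap1, the zinc cluster regulators Pdr1, Pdr3, Yrr1 and Stb5 and the heat shock and general stress factors act on overlapping sets of targets. NADPH itself comes mainly from the oxidative pentose phosphate pathway, the cytosolic aldehyde dehydrogenase Ald6 and the NADP-dependent isocitrate dehydrogenases.

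Each of 2 independent cultures, a and b, was grown until glucose was depleted and then diluted into fresh synthetic complete medium with glucose. Samples were taken at once (0 min, the glucose-depleted cells) and at 8 later times up to 300 min, when the cells were growing, which gave 18 two-colour arrays with 1 for each culture and time. The strain tag reads BY4742 and the genotype tag wt-matA for every sample, no other alteration is listed, and each sample was set against the same pool of wild-type RNA, labelled refpool and BY4742. All values are log2 ratios of sample to reference, so a value of 0 means the level of the pool, and a change between times is the difference of those ratios. A gene was called where a linear model over all arrays (limma) gave a p under 0.01 after Benjamini-Hochberg adjustment together with a change of more than 1.7-fold. With 2 arrays for each time the number of arrays limits the precision, and on each of them 97.89 to 99.33% of the gene spots were above background in both channels.

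The values of 1 array at 0 min go against its dye label, and its direction bears on every value at that time. According to the labels the sample was in Cy5 on both 0 min arrays, yet their ratios correlated at -0.917 over all genes, whereas the cultures correlated at 0.61 to 0.972 at the later times. The genes fixed by mating type and genotype show the same opposition. By the labels the mean of 4 alpha-cell genes at 0 min was 4.63 in culture a, -4.05 in culture b and between -5.06 and -4.24 on the 16 later arrays. The mean of 6 a-cell genes was -2.45, 2.50 and 3.20 to 4.13 on the same arrays, LYS2 was at -3.31, 3.29 and 3.11 to 4.46, and MET17 at 5.60, -5.00 and -5.28 to -4.33. Once turned in sign, the culture a array has these marker values on the same side of the reference as all the other arrays. The rule by which the 4 genes were chosen turns the sign of the culture a array, called the doubted array below. This is followed here, with values as labelled and values without the doubted array given beside it. On the later arrays the low alpha-cell genes, the high a-cell genes, the high LYS2 and the low MET17 also go against the BY4742 tag of the samples, since BY4742 is an alpha strain that lacks LYS2 and holds MET17. From 3 min on the sample of culture a is always in Cy3 and that of culture b always in Cy5, so culture and dye cannot be told apart.

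ADH6 was close to the reference in depleted cells and far above it from 3 to 30 min. At 0 min its log2 ratio in cultures a and b was -0.69 (0.69 as labelled) and -0.04. At 3 min it was 2.95 and 2.75, at 7.5 min 2.74 and 2.67, and at 15 min 2.53 and 2.50. At 30 min it still stood at 1.66 (a) and 1.77 (b). These 8 arrays from 3 to 30 min all lay above every other array. An early excess was part of the choice of the genes, and how many other genes separate in this way was not counted. By 60 min the values were 0.45 and 0.39, at 110 min 0.05 and -0.04, at 150 min 0.20 and -0.08, and at 300 min 0.21 and -0.05. From 110 min on the 2 cultures lay on both sides of the reference level. The 3 earliest times after transfer differed by 0.34 or less in their means, against a residual SD of 0.19 for single arrays within a time.

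ADH7, the paralogue of ADH6, kept its excess without loss for 15 min. Its log2 ratio at 0 min was -0.49 in both cultures (0.49 in culture a as labelled). It was 2.06 (a) and 2.15 (b) at 3 min, 2.08 and 2.20 at 7.5 min, and 2.04 and 2.09 at 15 min. These 6 values overlapped between the times and span less than the width of 2 residual SDs (0.12 each), so no order can be given to them. At 30 min the values were 1.66 and 1.84, and at 60 min 0.12 and 0.52, where the cultures were farthest apart. ADH7 was at 0.15 and 0.08 at 110 min, 0.01 and 0.06 at 150 min, and 0.13 and -0.03 at 300 min. ADH7 therefore stood near the reference from 110 min on, as ADH6 did.

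OYE2 had the smallest and shortest excess of the 4 genes. Its 0 min values were -0.30 (a; 0.30 as labelled) and 0.54 (b). It was 1.13 and 1.85 at 3 min, 0.47 and 0.84 at 7.5 min, and 0.06 and 0.31 at 15 min. Culture b was above culture a at each of these times, and the 3 min values alone lay above both 0 min values in both cultures. At 30 min OYE2 was at 0.12 and 0.29, overlapping with 15 min. The gene was below the reference in both cultures at the 4 last times, with -0.16 and -0.12 at 60 min, -0.54 and -0.32 at 110 min, -0.40 and -0.13 at 150 min, and -0.15 and -0.01 at 300 min. Its residual SD of 0.30 was the widest of the 4 genes.

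OYE3, the paralogue of OYE2, had the highest ratio to the reference and the largest decline. Its 0 min values were 1.63 (a) and 1.38 (b) once the doubted array was turned, so depleted cells already lay above the reference, whereas as labelled culture a stood at -1.63. At 3 min it was 4.56 and 4.69, at 7.5 min 4.12 and 4.52, and at 15 min 3.36 and 3.43. Each of these times lay below the one before in both cultures. At 30 min OYE3 was at 1.09 and 0.65, below its turned 0 min values, and at 60 min at 0.01 and 0.11. The last times gave -0.01 and -0.03 at 110 min, -0.18 and -0.09 at 150 min, and 0.01 and 0.15 at 300 min, so from 60 min on OYE3 was at the level of the reference.

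**Figure D1:**
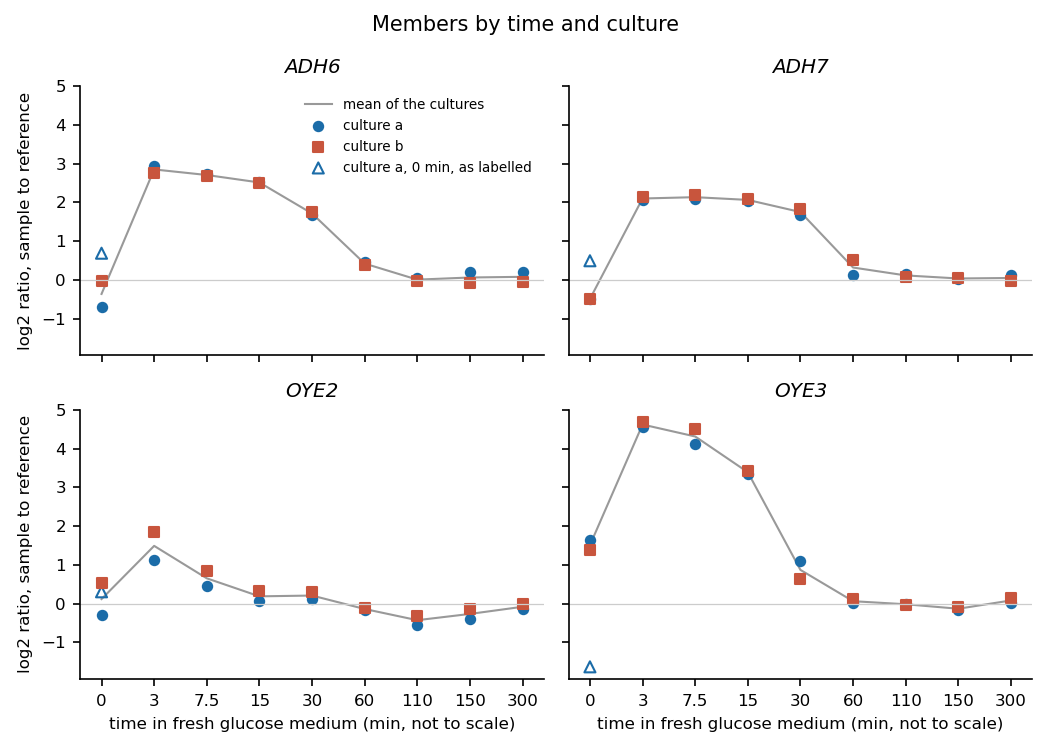
Log2 ratio of sample to reference (y axis) for each of the 4 genes at the 9 times (x axis, not to scale), with culture a as circles, culture b as squares, the mean as a line, and the doubted 0 min value as labelled as an open triangle. All 4 genes were highest from 3 to 7.5 min, from a mean of 1.49 for OYE2 to 4.63 for OYE3, and from 110 min on the means lay between -0.43 and 0.12.

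The size of the change from 0 to 3 min chose the genes and is given as a description with no test. The mean difference was 3.22 for ADH6 (9.3-fold), 2.60 for ADH7 (6.04-fold), 1.37 for OYE2 (2.59-fold) and 3.12 for OYE3 (8.68-fold). Both ADH6 spots of culture b were above the saturation limit at 3 min, so its part of the ADH6 value, 2.79, may be too low, while the unsaturated culture a gave 3.64 turned and 2.26 as labelled. ADH6, OYE3, ADH7 and OYE2 then held places 2, 3, 8 and 234 of the 5276 genes, counted from the largest increase. As labelled, the differences were 2.53, 2.10, 1.07 and 4.75 in the order ADH6, ADH7, OYE2 and OYE3, and the places of those genes 96, 151, 478 and 2. In culture b alone, whose 0 min array carries no such doubt, they were 2.79, 2.64, 1.31 and 3.31. The direction was therefore upward in both cultures and under either orientation, while the order of the 4 genes by size was not fixed. OYE2 is the gene nearest to the rest of the genome in this measure. Its difference was 0.955 without the doubted array and 1.79 without the other 0 min array, the widest range of the 4 genes. Those values set both cultures at 3 min against 1 depleted culture and so ignore the pairing. Within cultures a (turned) and b OYE2 rose by 1.435 and 1.31, while ADH6, at 3.64 and 2.79, differed most between the cultures. Set against 300 min, with no 0 min array involved, the 3 min values of ADH6, ADH7, OYE2 and OYE3 were higher by 2.77, 2.05, 1.57 and 4.55.

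The decline after 3 min, also part of the choice and not tested, differed among the 4 genes. Relative to 3 min in the same culture, OYE2 had changed by -0.67 and -1.01 at 7.5 min in cultures a and b. ADH7 had changed by 0.02 and 0.05 and ADH6 by -0.21 and -0.08 over the same interval, and OYE3 by -0.44 and -0.17. At 30 min the mean difference from 3 min was -3.76 for OYE3, -1.28 for OYE2, -1.14 for ADH6 and -0.35 for ADH7. OYE3 held the first place of the 5276 genes by its excess at 3 min over 30 min, OYE2 place 183, ADH6 place 232 and ADH7 place 1092. At 60 min the differences were -4.57, -1.63, -2.43 and -1.78 for OYE3, OYE2, ADH6 and ADH7. The largest step down between successive times thus lay between 30 and 60 min for both alcohol dehydrogenases, between 15 and 30 min for OYE3 and between 3 and 7.5 min for OYE2. The intervals between times differ in length and the steps were not scaled to it, so the largest step need not be the fastest.

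**Figure D2:**
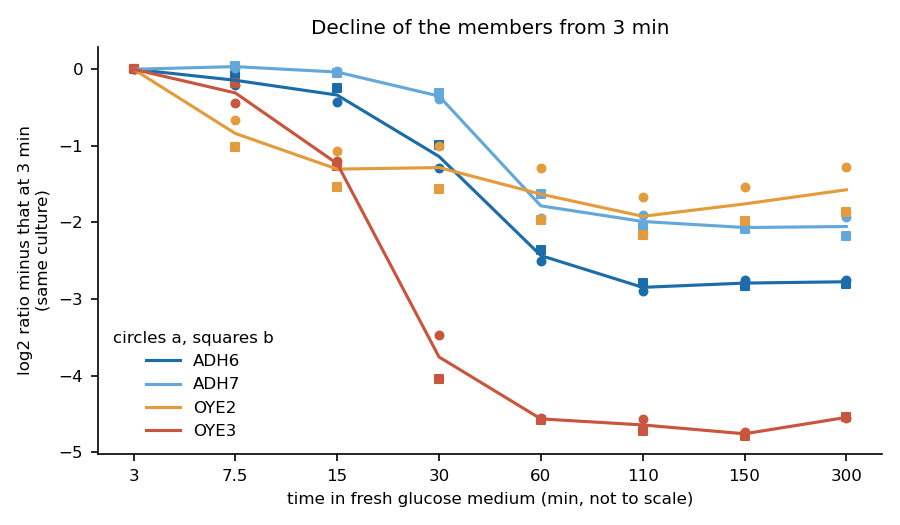
Log2 ratio minus that of the same culture at 3 min (y axis) against time (x axis, not to scale), with the mean as a line, culture a as circles and culture b as squares. ADH7 was within 0.05 of its 3 min value in the mean at 7.5 and 15 min, while OYE3 was 3.76 below it at 30 min.

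Over the 18 arrays ADH6 and ADH7 followed each other most closely, with a Pearson correlation of 0.979. OYE2 and OYE3 correlated at 0.812, ADH6 with OYE3 at 0.863 and ADH7 with OYE3 at 0.794. OYE2 was least like the alcohol dehydrogenases, at 0.736 with ADH6 and 0.664 with ADH7. Over the 16 arrays from 3 min on the same 6 pairs ranged from 0.753 to 0.981. These correlations describe arrays that share their times and the reference pool, and the genes were chosen for a shared course.

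The scanner intensities show which channel carried the changes. OYE3 had 6809 and 9046 intensity units in the sample channel at 3 min in cultures a and b, and 92.65 and 205.4 at 300 min. Its reference channel, which held the same pool on every array, was at 334.6 and 201.8 at 3 min and between 86.17 and 206.1 at the other times from 7.5 min on. The reference reading at 3 min was thus the highest of its culture in both series, and how far this reached into the ratio was not tested. ADH7 was also a dim probe, with a reference channel of 115.2 to 367.8 on the arrays from 3 min on and a sample channel of 1046 and 1248 at 3 min. ADH6 and OYE2 were bright probes, with reference channels of 3202 to 7848 and 4514 to 11640. The ADH6 spots of culture b were above the saturation limit at 3, 7.5 and 15 min, at 33580, 45110 and 34570 units, whereas those of culture a were below it at 29350, 27870 and 27870 units. In culture a, with no saturated spot, the ADH6 ratio at 3 min was 2.75 above that at 300 min, and in culture b 2.80. Both spots of all 4 probes were above background on all 18 arrays. The largest gap between duplicate spots was 0.52 on the log2 scale, for ADH6 at 150 min in culture a, and at most 0.13 for the other members. Whether the 70-mer probes tell the paralogues apart was not tested.

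**Figure D3:**
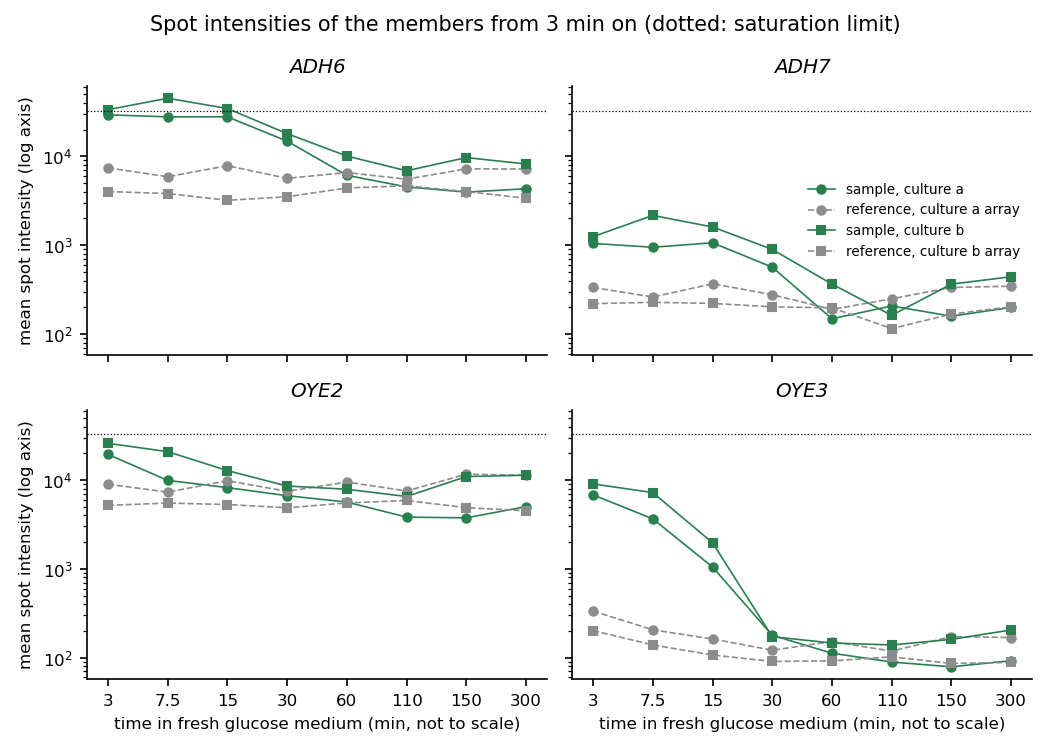
Mean spot intensity (y axis, log axis) of the sample channel (solid) and the reference channel (dashed) for each gene from 3 min on (x axis, not to scale), with circles for the arrays of culture a and squares for those of culture b. The OYE3 sample channel ran from 9046 at 3 min to values near its reference channel by 60 min, and the dotted line marks the saturation limit.

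Growing cells at 300 min were compared with depleted cells at 0 min. The 0 min arrays entered the choice of the genes. A short-lived excess was also part of that choice, so the late arrays may have entered it too. The adjusted p-values of the 4 genes in this contrast are therefore not independent of the choice and serve as a description. With the doubted array turned, 19.3% of all genes were called higher and 19.3% were called lower. Of the 4 genes 1 was called lower and 0 higher, a share near that over all genes. OYE3 fell by 1.43 on the log2 scale (SE 0.15, limma adjusted p = 4.9e-06), from 1.63 and 1.38 at 0 min to 0.01 and 0.15 at 300 min, so both growing cultures lay below both depleted ones. The call was kept without the doubted array, where OYE3 fell by 1.30 (adjusted p = 8.09e-05). It was lost as labelled, where the difference was 0.21 (SE 0.68, adjusted p = 0.9999), a setting in which 1 gene of 5276 was called higher and 0 lower, and 122 genes had an unadjusted p under 0.05.

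ADH7 differed between 300 and 0 min by 0.54 (SE 0.11, adjusted p = 0.00108), which passes the p threshold but not the fold threshold. ADH6 differed by 0.44 (SE 0.17, adjusted p = 0.0374) and OYE2 by -0.20 (SE 0.27, adjusted p = 0.522), and neither was called. Growing cells lay above depleted cells in both cultures for ADH7. For ADH6 culture a gave 0.90 and culture b -0.01, and for OYE2 0.15 and -0.55, so the cultures did not share a direction in either gene. As labelled, the differences were 0.05 for ADH7, -0.25 for ADH6 and -0.50 for OYE2, with adjusted p = 0.9999 each. Without the doubted array they were 0.54, 0.12 and -0.62, and none was called. Among the fits that left out 1 array, ADH6 was called higher in that without the 0 min array of culture b, at 0.77 (limma adjusted p = 0.000396).

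Other genes of the surrounding chemistry were taken from lists and tested at 3 min against 0 min and against 300 min. Over all genes 12.2% were called higher and 13.4% lower at 3 min against 0 min, and 13.7% higher and 13.6% lower against 300 min. The median difference over all genes was -0.007 against 0 min and 0.007 against 300 min. Both comparisons share the 3 min arrays. As labelled, 104 genes were called higher and 127 lower at 3 min against 0 min, and without the doubted array 502 and 737. The spiked external control spots, used for scaling in place of all genes, moved the median of all genes to 0.23 against 0 min and -0.31 against 300 min, with 1060 genes higher and 462 lower in the former and 436 and 1289 in the latter. The doubted array does not enter a difference between 3 and 300 min, but it enters the spread pooled over all times and so the calls. As labelled, 73 genes were called higher and 87 lower against 300 min, without the doubted array 735 and 745, and with the 3 and 300 min arrays alone in the fit 693 and 688.

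Among other alcohol and polyol dehydrogenases, calls went both ways. Of 9 measured genes 1 was called higher and 2 lower against 0 min, with a median of 0.08, and 4 higher and 1 lower against 300 min. ADH4, an alcohol dehydrogenase isoenzyme, rose by 0.85 (SE 0.24, adjusted p = 0.00903). BDH1, the butanediol dehydrogenase, fell by 1.49, from 0.93 and 0.84 in the depleted cultures to -0.64 and -0.56 at 3 min. Its neighbour BDH2 fell by 0.855, yet stood at 2.91 and 3.10 at 3 min, 3.54 above its 300 min level. As labelled none of the 9 was called against 0 min, with BDH1 at -0.55 and the signs of BDH2 (2.83) and ADH4 (-0.01) opposite, and without the doubted array 0 were higher and 3 lower. The 1 call upward, of ADH4, was also lost without the 3 min array of either culture, and the 2 downward calls became 1 without that of culture a, while 2 genes were higher without the other 0 min array. Against 300 min 0 and 0 were called as labelled, 4 and 2 without the doubted array, 1 and 2 with scaling to the external controls, and 2 and 1 without the 3 min array of culture b or the 300 min array of culture a.

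Among 10 aldehyde and ketone reductases, 2 were called higher and 2 lower against 0 min. GRE2, an NADPH-dependent methylglyoxal and isovaleraldehyde reductase, rose by 2.20 (SE 0.20, adjusted p = 2.61e-06), from 0.12 and 0.35 to 2.21 and 2.66. It was at 1.51 and 1.64 at 7.5 min and at 0.19 and 0.41 at 30 min, and its 3 min level was 2.56 above that at 300 min. ARI1, an NADPH-dependent aldehyde reductase, rose by 1.29 but from well below the reference, from -2.78 and -2.53 to -1.39 and -1.35, and was 1.30 lower at 3 min than at 300 min. The aldo-keto reductases GCY1 and ARA1 fell by 1.73 and 1.42. Against 300 min 3 genes were higher and 3 lower. As labelled, 1 of the 10 was called higher and 0 lower, with GRE2 at 2.32 and ARA1 at -0.43 but ARI1 (-1.50) and GCY1 (1.53) of opposite sign, and without the doubted array 2 and 3. Against 300 min the counts were 1 and 0 as labelled and 4 and 3 without the doubted array.

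None of the 6 aryl-alcohol dehydrogenases was called against 0 min, since all lay under the fold threshold, with differences from 0.36 for AAD3 to 0.73 for AAD4 and a median of 0.57. Against 300 min 4 were called higher and 0 lower, namely AAD14 at 1.33, AAD6 and AAD4 at 1.10 and AAD10 at 1.02. AAD4 was at 0.64 and 0.31 at 0 min, 1.33 and 1.08 at 3 min and 0.18 and 0.04 at 300 min. As labelled 1 was higher against 0 min, without the doubted array 2, and with scaling to the external controls 4. Without the 3 min array of culture b 1 was higher. Against 300 min none of the 4 calls was kept as labelled, all 4 were without the doubted array, and 3 genes were called with scaling to the external controls. How far the near-identical copies of this family share signal between probes was not tested.

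Quinone reductase and flavodoxin-like proteins held 3 higher and 1 lower of 8 measured genes against 0 min, with a median of 0.03. YLR460C and YCR102C, similar zinc-type oxidoreductase-like proteins, rose by 2.16 and 1.65 (SE 0.089 and 0.105), and YML131W, of the medium-chain reductase type, by 1.56. YLR460C went from -0.61 and -0.68 to 1.63 and 1.40, and was back at -0.16 and -0.23 at 30 min. YML131W was at 2.19 and 2.39 in depleted cells, 3.69 and 4.003 at 3 min, and -0.54 and -0.35 at 300 min, which puts its 3 min level 4.29 above that of growing cells. RFS1, a flavodoxin-like protein, fell by 1.32. Against 300 min 4 were higher and 2 lower, which became 2 and 0 as labelled, 4 and 2 without the doubted array, and 4 and 1 when either the culture a array at 3 min or the culture b array at 300 min was left out. As labelled 2 were higher and 1 lower against 0 min, and YLR460C, YCR102C, YML131W and RFS1 kept their signs at 1.55, 1.34, 3.74 and -1.24. Without the doubted array 3 were higher and 1 lower.

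**Figure D4:**
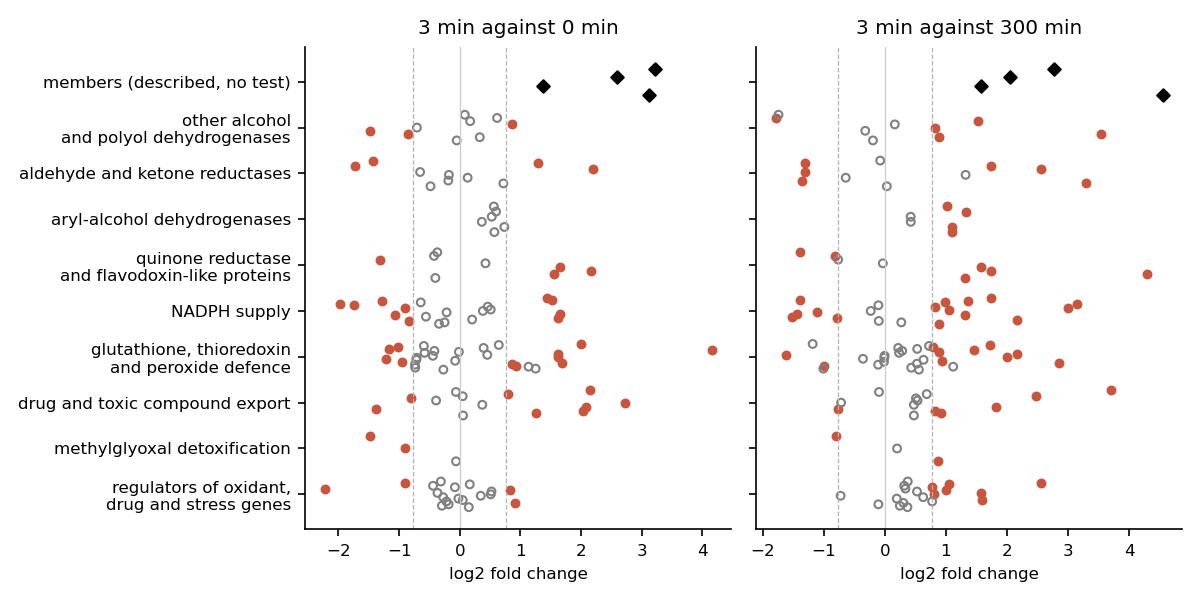
Log2 fold change (x axis) of each measured gene of the lists (rows) at 3 min against 0 min, with the doubted array turned (left), and against 300 min (right). Filled circles passed the thresholds, open circles did not, diamonds are the 4 genes chosen by this change and not tested, and dashed lines mark a fold change of 1.7. The drug export list held 6 of 13 genes called higher on the left, and the aryl-alcohol dehydrogenases 0 of 6.

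Genes of the NADPH supply list moved in both directions. The list also holds enzymes that make no NADPH themselves, such as TKL1 and NQM1. Of 19 genes 4 were called higher and 6 lower against 0 min (median -0.25), and 10 higher and 5 lower against 300 min (median 0.82). The 6-phosphogluconolactonase SOL3 rose by 1.65 and the transketolase TKL1 by 1.61, and both were still below the reference at 3 min, SOL3 at -1.64 and -1.37 and TKL1 at -0.76 and -0.53. ALD6 and the 6-phosphogluconate dehydrogenase GND1 were the other 2 called higher, by 1.43 and 1.51. The isocitrate dehydrogenases IDP2 and IDP3 fell by 1.97 and 1.75. The others called lower were GND2 at -1.28, SOL4 at -1.06, NQM1 at -0.91 and UTR1 at -0.84. As labelled GND2, SOL4 and NQM1 were at 1.365, 0.88 and 2.68, and UTR1 at -0.11. ZWF1, the glucose-6-phosphate dehydrogenase at the head of the pathway, differed by -0.34 (SE 0.17, adjusted p = 0.109), with 0.97 and 1.23 at 0 min and 0.80 and 0.73 at 3 min. As labelled 0 of the 19 were called, ALD6 was at 1.42, and SOL3 (-1.79), TKL1 (-0.998), GND1 (-1.996), IDP2 (2.93), IDP3 (0.27) and ZWF1 (0.63) had the opposite sign. Without the doubted array 2 were higher and 7 lower, and without the 3 min array of culture b 2 and 6. Against 300 min 0 and 0 were called as labelled, 10 and 5 without the doubted array, and 6 and 5 with scaling to the external controls. The 5 genes lower than at 300 min became 2 when either the culture a array at 3 min or the culture b array at 300 min was left out, and the counts were 7 and 3 without the 300 min array of culture a.

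Of 27 genes of glutathione, thioredoxin and peroxide defence, 7 were called higher and 4 lower against 0 min (median -0.08). GPX2, a glutathione peroxidase, rose by 4.15 (SE 0.17, adjusted p = 8.92e-09), from -3.10 and -3.21 to 1.08 and 0.92, and was at 0.38 and 0.27 at 7.5 min and -0.32 and -0.70 at 15 min. AHP1, a thiol peroxidase, rose by 1.99 to -1.41 and -0.81 at 3 min, and stood at 0.06 and 0.71 at 15 min. SRX1, the sulfiredoxin, rose by 1.68 and GTT2, a glutathione transferase, by 1.63, and at 110 min they were at -0.08 and -0.24 and at -0.06 and 0.08. GSH1, TRX1 and TRR1 completed the 7. The 4 called lower were OXR1 at -1.21, GPX1 at -1.16, CTT1 at -1.02 and SOD2 at -0.95. As labelled OXR1 and SOD2 were at -0.37 and -0.19, and GPX1 and CTT1 at 0.70 and 0.26. TRX2, a thioredoxin gene and known Yap1 target, differed by 1.13 with an SE of 0.53 and was not called (adjusted p = 0.0838). Against 300 min 8 were higher and 2 lower. As labelled 3 were higher and 0 lower against 0 min, with SRX1 at 2.70, GTT2 at 1.97, GPX2 at 1.06 and AHP1 reversed at -1.06, and without the doubted array 7 and 4. Against 300 min they were 3 and 0 as labelled, 8 and 2 without the doubted array, 5 and 3 with scaling to the external controls, and 5 and 2 without the 3 min array of culture b.

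Drug and toxic compound export had 6 of 13 genes called higher and 2 lower against 0 min (median 0.37), and 5 higher and 1 lower against 300 min. PDR5, the broad drug efflux pump, rose by 2.72 (SE 0.09, adjusted p = 3.6e-09), from -3.28 and -3.13 to -0.49 in both cultures. ATR1, an exporter of the major facilitator family, rose by 2.15, from 1.42 and 1.66 to 3.62 and 3.75, and was at 1.05 and 0.99 at 30 min. The ABC transporters SNQ2 and YCF1 rose by 2.08 and 2.03, and FLR1 and YHK8 were the others called higher. The 2 called lower were TPO1 at -1.39 and PDR12 at -0.80, which were at -0.89 and 0.28 as labelled. The 3 genes for methylglyoxal detoxification had 0 higher and 2 lower, with GLO1, the glyoxalase, down by 1.48 and GLO2 by 0.91. As labelled 2 of the export genes were higher and 0 lower, with ATR1 at 3.57, SNQ2 at 1.76, YCF1 at 0.72 and PDR5 reversed at -0.56, and without the doubted array 5 and 2. The export genes lower than at 0 min were 1 without the other 0 min array. Against 300 min 2 and 0 were called as labelled, 5 and 1 without the doubted array and 3 and 2 with scaling to the external controls, and the 1 lower call was lost when either the culture a array at 3 min or the culture b array at 300 min was left out. Without the doubted array the methylglyoxal counts were again 0 and 2, and as labelled 0 and 0 with GLO1 at -1.06 and GLO2 at -0.09, while 1 was lower without the other 0 min array.

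Of 19 genes for regulators of oxidant, drug and stress genes, 2 were called higher and 2 lower against 0 min, with a median of -0.08. YAP7 rose by 0.92 and PDR1 by 0.82, whereas MSN4 fell by 2.23, from 2.44 and 2.51 to 0.23 and 0.27, and CIN5 by 0.91. YAP1 itself differed by -0.27 (SE 0.07, adjusted p = 0.00527), which is under the fold threshold, with 1.05 and 0.87 at 0 min, 0.65 and 0.72 at 3 min and 0.04 and 0.07 at 300 min. STB5, which lies next to OYE2, was at -1.07 and -1.16 at 0 min and -0.76 and -0.77 at 3 min, a difference of 0.35 (SE 0.09, adjusted p = 0.00678) that is also under the fold threshold. Against 300 min 7 regulators were higher and 0 lower, as they were without the doubted array. As labelled 0 were called against 300 min, with scaling to the external controls 3 were higher and 1 lower, and without the 3 min array of culture b 4 were higher. As labelled 0 were called against 0 min, with YAP7 at 0.15 and PDR1 at 0.93 but MSN4 (0.21), CIN5 (1.59), YAP1 (0.78) and STB5 (-0.72) of opposite sign, and without the doubted array 0 were higher and 2 lower. Leaving out each of the other 3 arrays in turn gave 1 or 2 higher and 1 or 2 lower.

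The genes that lie beside the members on their chromosomes were measured too. Of 14 measured genes within 2 places on either side, 1 was called higher and 1 lower at 3 min against 0 min. The former was YCR102C near ADH7, described above with the quinone reductase-like proteins, and the latter DAP1, a haem-binding regulator of sterol synthesis beside OYE3, at -1.15. PAU3 and RDS1, the nearest genes to ADH7, differed by -0.44 and 0.38 and were not called. FET4, beside ADH6, differed by -0.67 and COX10, beside OYE3, by -0.36, and neither was called. All 12 neighbours not called lay between -0.67 and 0.38.

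Genes whose course over the 18 arrays was most like the mean of the 4 members were found by Pearson correlation among 5272 genes. The closest was FRM2 at 0.986, followed by KTR2 at 0.985 and HBN1 at 0.972. FRM2 and HBN1 encode related nitroreductase-like flavoproteins and carry consecutive locus names (YCL026C-A and YCL026C-B). FRM2 was at 0.34 and 0.44 at 0 min, 2.39 and 2.63 at 3 min, 2.45 and 2.75 at 7.5 min, 0.89 and 0.91 at 30 min and -0.01 and 0.14 at 300 min. HBN1 went from -0.40 and -0.29 at 0 min to 2.60 and 2.77 at 3 min and to 0.04 and 0.16 at 300 min. Both genes thus stood high from 3 to 15 min and near the reference at the end.

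The other 8 had correlations from 0.962 to 0.985. They were the mannosyltransferase gene KTR2, CCS1 for the copper chaperone of superoxide dismutase, SGF11 of the SAGA deubiquitinating module, NOG2 for a GTPase of large ribosomal subunit assembly, the haem oxygenase gene HMX1, the beta-glucan synthesis gene KRE6, BAS1 for a regulator of purine and histidine synthesis, and PPT2 for a mitochondrial phosphopantetheine transferase. Their sizes differed widely, with 3 min against 0 min differences from 0.52 for SGF11 to 1.92 for CCS1. Over the 16 arrays from 3 min on, the correlations of the 10 genes were 0.963 to 0.989 and none of them was among the 10 closest, so the order depends on the 0 min arrays. By Spearman correlation 2 of the 10 kept a place among the 10 closest, and as labelled 7. The gene in place 100 still correlated at 0.907. These arrays share their times and the reference pool, and the likeness is a description.

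**Figure D5:**
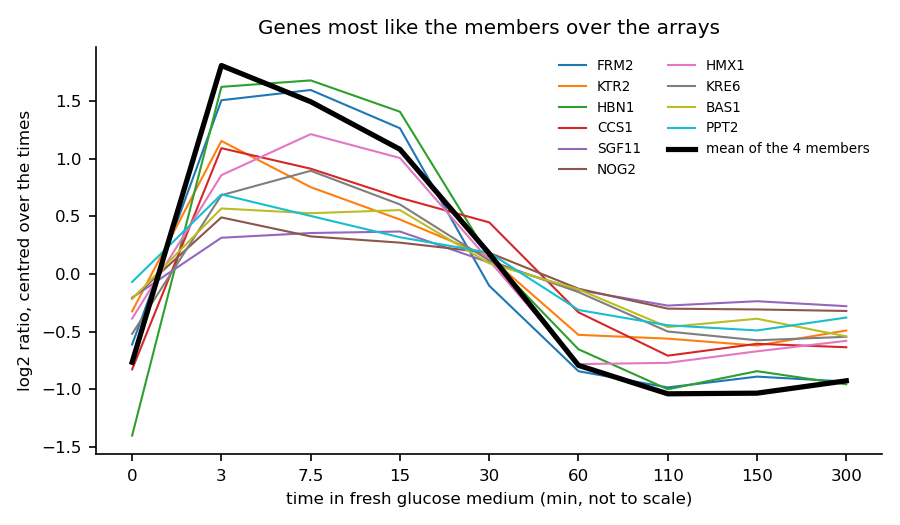
Mean log2 ratio of the 2 cultures, centred over the 9 times (y axis), against time (x axis, not to scale) for the 10 genes most like the mean of the 4 members, which is the thick black line. The lines of FRM2 and HBN1 lie closest to it in size, and SGF11, with a difference of 0.52 between 3 and 0 min, is among the flattest.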

How the data were processed

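The authors hybridised amplified RNA on 70-mer arrays with duplicate spots and deposited the mean intensity of each spot and a table of log2 ratios, made by print-tip loess with no background subtraction. The submitters' processing notes name limma 2.12.0. From the deposited intensities, log2 ratios were recomputed in R 4.3.3 with limma 3.58.1 (print-tip loess, span 0.4, spots above 2 to the power 15 in either channel at weight 0) and the 2 spots averaged. They correlated with the deposited log2 ratios at 0.99977 or more. Of 6388 gene probes 5326 had a name. Mitochondrial genes and transposable elements were left out, the brighter of several probes was kept for 8 genes, and 5276 genes were fitted with 1 coefficient for each time (9 residual degrees of freedom). The cultures pair the arrays, as each time was compared with the same cultures at 0 min. Their differences at 0 min, turned, correlated with those at later times at 0.259 to 0.645. Among the later times the culture differences correlated at 0.389 to 0.902. The model was tested on simulated data with independent noise on each array. That noise left out the differences that a culture shares between times, so the simulation cannot show how often calls in these data are false. The members and lists were chosen with earlier results of these data known. Named were the members, up to 4 called genes of each list with the largest change at 3 min against 0 min, YAP1 and the 10 genes most alike; the others (ZWF1, TRX2, STB5, the genes completing a count and the neighbours) were named after their values were seen. SOR1, AAD16 and YKL071W were not analysed here.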

Additional observations from a re-analysis of the deposited data

How the results depend on the processing

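The doubted array (0 min, culture a) changed most calls. As labelled, 1 gene was higher and 0 lower at 300 min against 0 min, and 104 and 127 at 3 min against 0 min. Against 300 min, an alternative chosen after seeing the data, 73 were higher and 87 lower. OYE3 and ADH6 then differed by 0.21 and -0.25 at 300 min against 0 min, and the 3 min against 0 min differences were 2.53 for ADH6, 2.10 for ADH7, 1.07 for OYE2 and 4.75 for OYE3. With the sample dye as a further term in that setting the counts were 1 and 0, and 119 and 135, and OYE3 and ADH6 were at 0.24 and -0.30.

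Scaling to the external control spots gave 2133 genes higher and 573 lower at 300 min against 0 min, 1060 and 462 at 3 min against 0 min, and 436 and 1289 at 3 min against 300 min, where the median of all genes lay at 0.58 in the first comparison. ADH6 and ADH7 were then called higher at 300 min against 0 min, at 0.99 and 1.09, and OYE2 changed sign to 0.35. ADH7 and OYE2 were at 2.83 and 1.61 at 3 min against 0 min, and ADH6, ADH7 and OYE3 at 2.46, 1.74 and 4.23 against 300 min. With 1 loess curve for each array ADH6, OYE2 and OYE3 were at 2.65, 2.03 and 4.56 against 300 min. In that setting OYE2 was at -0.65 at 300 min against 0 min (limma adjusted p = 0.0095), which passes the p threshold but not the fold threshold. With only the arrays of both times in the fit 341 genes were higher and 469 lower at 3 min against 0 min.

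With the culture as a replicate block, the paired fit gave 1049 higher and 1037 lower at 300 min against 0 min, 689 and 723 at 3 min against 0 min and 742 and 744 against 300 min, and it changed no call of a member. Leaving out each array in turn gave 899 to 1167 genes higher and 1007 to 1031 lower at 300 min against 0 min, 502 to 843 and 643 to 737 at 3 min against 0 min, and 662 to 735 and 651 to 745 against 300 min, where the 0 min array of culture a was among those left out. At 300 min against 0 min ADH6 then ranged from 0.12 to 0.77, ADH7 from 0.46 to 0.62, OYE2 from -0.62 to 0.22 and OYE3 from -1.56 to -1.30. At 3 min against 0 min OYE2 ranged from 0.955 to 1.79. Against 300 min ADH6 ranged from 2.65 to 2.90, OYE2 from 1.21 to 1.93 and OYE3 from 4.47 to 4.62. The deposited log2 ratios, the normexp background and the filter on dim probes kept the direction and the call of each member at 300 min against 0 min. Beyond the construction of each setting, the cause of these differences was not tested. OYE3 and ADH7 have dim reference signals, and some ADH6 spots of culture b lie above the saturation limit. Both may limit the ratios of these genes, which was not tested. The sample dye was not run as a term at 3 min against 300 min, where it equals the culture.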
